A study of Felis catus with 36 samples.

Results

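The 40 genes described here had more mRNA in the left ventricle (LV) of the cat at 4 months than at 1 month, and less in skeletal muscle (SKM) at 4 months than at 1 month. They were chosen by their own measured values. Counts of each library were divided by its total over genes and scaled to a library total of 1 M (CPM). For each tissue and treatment, the log2 of the group mean CPM plus 0.5 at 1 month was subtracted from the same value at 4 months. Only the 8072 of 26681 counted genes with a mean of at least 5 CPM in each tissue were ranked. A gene's rank came from the smallest of its 4 differences, with the sign of the SKM differences turned round, and the 40 genes with the highest smallest difference were taken. They are numbered 1 to 40 in that order. The differences between times therefore define these genes and are given as a description, with no test; tests were kept to comparisons between treatments and between tissues.

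The groups were Banded cats at 4 months, Banded cats at 1 month, SHAM cats at 4 months and SHAM cats at 1 month, each sampled in LV and in SKM. Banded refers to aortic banding, which the labels describe as a cat model of HFpEF, heart failure in which the ejection fraction is preserved, and SHAM to the controls. The SHAM 1-month group had 3 libraries per tissue and the other 3 groups 5 each, 36 libraries in all. The labels give no sex, age, strain, batch or degree of narrowing, and do not say that libraries of a group came from separate animals, so p-values measure the spread between samples, which may be technical.

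A band around the aorta raises the pressure against which the left ventricle ejects, and the chamber answers with a thicker and stiffer wall. In HFpEF the pump still empties well but fills poorly, and limb muscle is affected along with the heart, which bears on the poor exercise tolerance of the condition. Heart and limb muscle are both striated but use largely different sets of contractile, calcium-handling and metabolic genes, and both go on changing through postnatal growth.

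The files name genes only by Ensembl identifiers. None of the 26681 identifiers could be matched to the 39307 cat genes of the reference table (0 matches), so no member has a gene symbol, role or sequence here, and neither tissue could be checked against its marker genes. Identifiers are given for 4 members taken by a set rule: the highest 2 in rank, the member with the smallest p for banding, and the member with the highest mean CPM. CPM is not corrected for transcript length, so levels are compared between samples and not between genes. In bulk tissue, fewer cells of a type and less RNA per cell cannot be told apart.

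LV libraries held 14.6 to 22.3 M counts over genes, and SKM libraries 21.5 to 34.9 M. The share of counted reads assigned to a gene was 46.1% to 63.8% in LV and 56.3% to 76.3% in SKM. Among 66 pairs of libraries within groups none was identical (0 pairs), and the closest pair had a chi-square of 30.2 per degree of freedom. The comparisons in the authors' deposited tables that involve SHAM at 4 months are not matched by a fit of the labelled groups, and are matched when SHAM 1-month library 1 is also put where SHAM 4-month library 1 belongs. Results below keep each library in the group of its label, and values with that library replaced are given for the time differences in SHAM, the ranking and the banding comparisons at 4 months.

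Among the 8072 genes at the level floor, 454 had all 4 differences in the direction of the choice and 1159 had all 4 in the opposite direction. The smallest difference was above 1 log2 unit in 3 members, between 0.5 and 1 in 14 and under 0.5 in 23. Member 40 stood at 0.38, and the next 3 genes below it, which were not taken, at 0.37, 0.36 and 0.36. The boundary of the set is therefore a narrow step on a continuous scale.

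**Figure D1:**
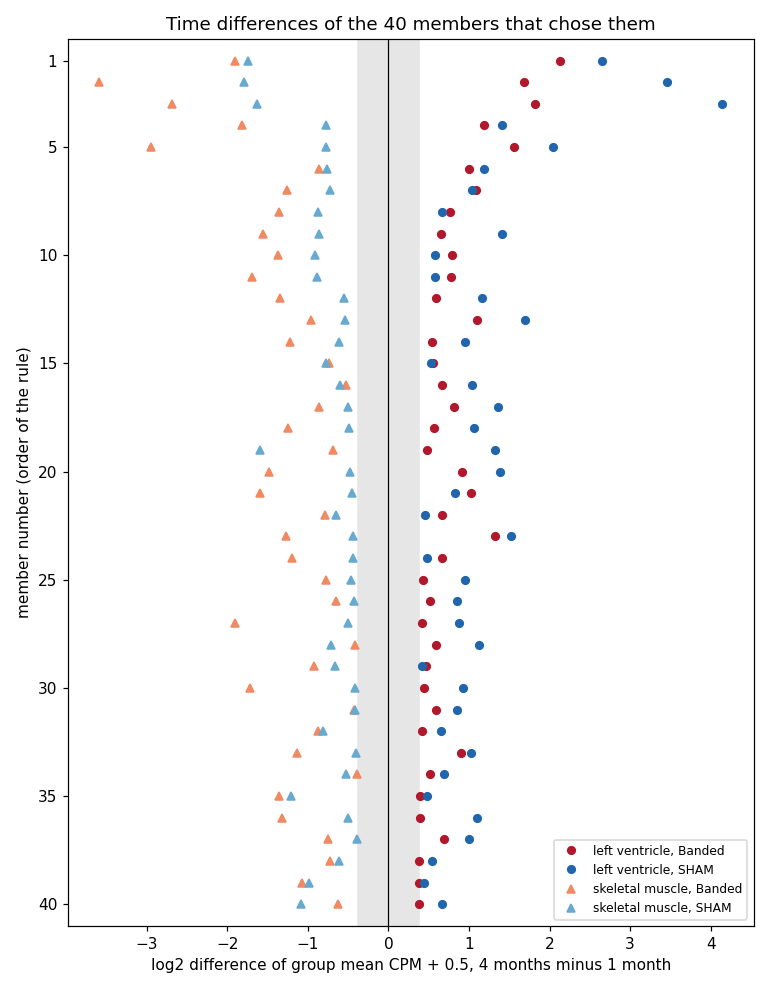
Log2 difference of group mean CPM plus 0.5, 4 months minus 1 month (horizontal axis), for members 1 to 40 (vertical axis), in LV and SKM of Banded and SHAM cats. The grey band spans the differences smaller than that of member 40, and members 1 to 3 are those with all 4 points beyond 1 log2 unit.

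In LV the median difference of the members between 4 months and 1 month was 0.66 in Banded and 0.98 in SHAM on the log2 CPM scale. Across all genes at the floor the LV medians on this scale were -0.17 in Banded and -0.13 in SHAM, against 0.01 in Banded and -0.04 in SHAM for all genes fitted after TMM scaling (a trimmed mean of log ratios between libraries). Relative to the all-gene CPM medians, the members' LV medians were 0.83 in Banded and 1.10 in SHAM. In SKM the members' median was -1.21 in Banded and -0.63 in SHAM, where all genes at the floor had medians of -0.03 in Banded and -0.00 in SHAM. The LV difference was larger in SHAM for 31 of 40 members and larger in Banded for 9. The SKM difference was larger in Banded for 34 members and larger in SHAM for 6. The same counts were not made over all genes, and ranking on the smallest difference bears on them. They are read no further. The share of reads assigned to genes moved with time in LV in opposite directions by treatment, with medians of 52.2% in Banded at 4 months, 61.4% in Banded at 1 month, 58.9% in SHAM at 4 months and 54.7% in SHAM at 1 month; its part in the differences was not tested. SHAM SKM set the rank of 19 members, Banded LV that of 12, SHAM LV that of 6 and Banded SKM that of 3.

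ENSFCAG00000013929, member 1, had the highest smallest difference. In LV its CPM was 8.07, 19.1, 67.9, 127 and 72.5 in the Banded 4-month libraries, against 5.36, 6.70, 9.05, 33.5 and 10.6 in the Banded 1-month libraries. The SHAM LV libraries had 7.63, 21.8, 152, 19.4 and 60.7 CPM at 4 months, against 6.14, 8.41 and 9.18 CPM at 1 month. Both LV groups of 4 months were widely spread and overlapped the 1-month groups, the lowest library of each lying among those of 1 month. In SKM its CPM was 5.04, 5.47, 1.97, 4.85 and 3.54 in Banded at 4 months, against 10.4, 32.8, 10.9, 15.7 and 15.4 in Banded at 1 month. The SHAM SKM libraries had 2.89, 6.31, 1.75, 4.81 and 9.70 CPM at 4 months, against 9.89, 21.3 and 23.4 CPM at 1 month. On the CPM scale every SKM library of 4 months lay below every SKM library of 1 month, in SHAM by only 9.70 against 9.89 CPM. With TMM or RLE factors (other scalings, described below) the SHAM SKM times overlapped and the Banded SKM times did not. In LV the separation by time was incomplete. The 4 differences were 2.13 (Banded LV), 2.65 (SHAM LV), -1.91 (Banded SKM) and -1.74 (SHAM SKM) on the log2 scale.

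ENSFCAG00000042461, member 2, showed the reverse arrangement. Its LV libraries had 9.78, 3.37, 8.30, 6.22 and 6.87 CPM in Banded at 4 months, against 1.60, 1.81, 1.17, 1.27 and 3.16 CPM in Banded at 1 month. In SHAM LV it stood at 5.26, 43.9, 5.11, 6.59 and 15.00 CPM at 4 months, against 1.17, 1.10 and 0.498 CPM at 1 month. All 10 LV libraries of 4 months were above all 8 of 1 month, while library 2 of the SHAM 4-month group was far above its group. The SKM libraries had 10.2, 1.98, 1.216, 1.27 and 2.74 CPM in Banded at 4 months, against 142, 16.3, 32.96, 42.4 and 3.79 CPM in Banded at 1 month. In SHAM SKM it stood at 5.95, 64.8, 4.81, 2.14 and 1.66 CPM at 4 months, against 109.6, 56.8 and 2.09 CPM at 1 month. The SKM values overlapped between times in both treatments, with 1 high library in the Banded 4-month, Banded 1-month and SHAM 4-month groups and 1 low library in SHAM at 1 month. With SHAM 1-month library 1 left out of SKM, the smallest difference of this gene was 0.87 in place of 1.69.

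**Figure D2:**
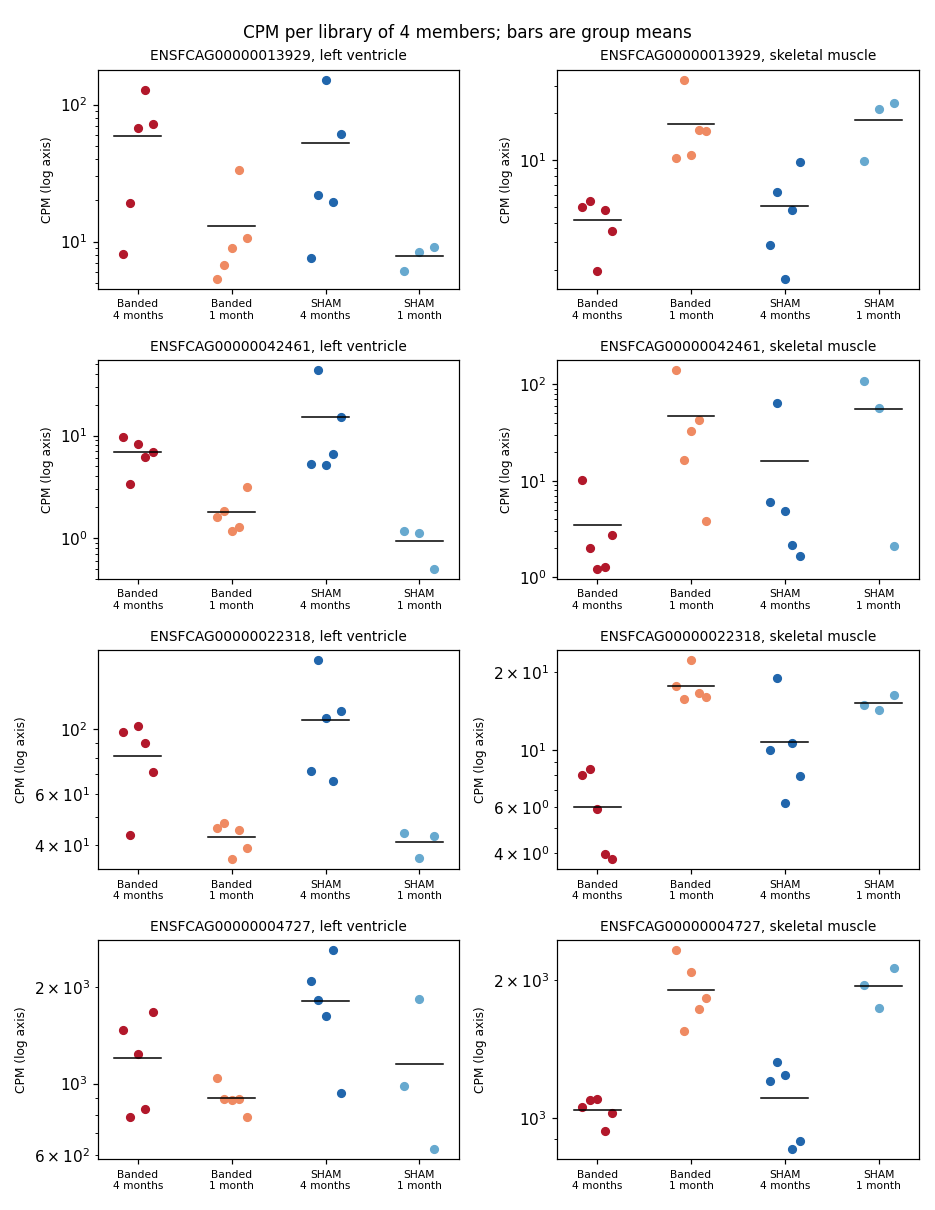
CPM per library on log axes for the 4 members printed by identifier, in LV (left column) and SKM (right column), by treatment and time; short lines are group means. The SKM libraries of ENSFCAG00000013929 at 4 months all lie below those at 1 month, and the LV libraries of ENSFCAG00000042461 at 4 months all lie above those at 1 month.

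ENSFCAG00000022318, member 20, was the member with the smallest p for banding. It had 97.7, 43.2, 103, 89.7 and 71.1 CPM in Banded LV at 4 months, against 45.8, 47.7, 35.7, 45.2 and 38.9 CPM at 1 month. In SHAM LV the values were 72.1, 174, 109, 66.3 and 116 CPM at 4 months, against 44.1, 35.9 and 42.97 CPM at 1 month. Only Banded 4-month library 2 fell among the LV libraries of 1 month. In SKM the Banded libraries had 7.99, 8.42, 5.93, 3.95 and 3.79 CPM at 4 months, against 17.7, 15.7, 22.3, 16.6 and 15.96 CPM at 1 month. The SHAM SKM libraries had 10.01, 18.96, 6.22, 10.6 and 7.95 CPM at 4 months, against 14.9, 14.3 and 16.3 CPM at 1 month. The Banded SKM groups did not overlap, whereas SHAM 4-month library 2 was above all 3 SHAM libraries of 1 month.

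ENSFCAG00000004727, member 32, had the highest CPM of the set. Its LV values were 1468, 786, 1241, 834 and 1669 CPM in Banded at 4 months, against 1038, 896, 890.3, 898 and 787 CPM in Banded at 1 month. In SHAM LV they were 2083, 1827, 1622, 2609.9 and 933 CPM at 4 months, against 986, 1842 and 624.8 CPM at 1 month. The LV groups overlapped in both treatments. In SKM the values were 1057, 1095, 1099.5, 934 and 1023 CPM in Banded at 4 months, against 2332, 1553, 2084, 1733 and 1827 CPM at 1 month. SHAM SKM had 1207, 1325, 1240.4, 854 and 889.8 CPM at 4 months, against 1955, 1744 and 2126 CPM at 1 month. All SKM libraries of 4 months were below all of 1 month, with group means of 1042 CPM (SD 67.9, n = 5) in Banded at 4 months and 1906 CPM (SD 306, n = 5) in Banded at 1 month.

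How cleanly the libraries of the 2 times separated was counted for every member, in the direction of the choice. In LV, with both treatments pooled, 3 of 40 members (numbers 2, 6 and 17) had all 4-month libraries above all 1-month libraries, where 1.67% of the 8072 genes at the floor did. This count depends on the scaling: it was 8 with TMM factors (3.84% of genes) and 10 with RLE factors (relative log expression, 3.96%). It was 7 without Banded 4-month library 2 and 5 without SHAM 4-month library 5. Within Banded LV the count was 9 (3.79% of genes) and within SHAM LV 17 (5.57%). In SKM, with both treatments pooled, 10 members (numbers 1, 4, 7, 10, 11, 14, 18, 32, 35 and 39) had all 4-month libraries below all 1-month libraries, where 4.91% of genes did; the count was 8 with TMM factors (4.63%) and 6 with RLE factors (4.24%). Within Banded SKM the count was 20 (12.1%) and within SHAM SKM 18 (15.9%). These shares follow from the choice and are read no further. On the CPM scale no member (0 of 40), and none of the 8072 genes, separated the times without overlap in both tissues and both treatments at once, whereas with TMM or RLE factors member 17 did. The separations of single members, above and below, are those on the CPM scale unless stated. With TMM factors members 15 and 39, for example, separated the times in LV of both treatments, while member 15 overlapped in Banded SKM. On the CPM scale members 11, 14 and 17 separated the times in both tissues of Banded cats, out of 7 such genes. Members 7, 13, 16, 18, 19 and 28 did so in both tissues of SHAM cats, out of 19 such genes.

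Member 14 is an example of the narrow kind. In Banded LV it had 184, 179, 188, 168 and 171 CPM at 4 months, against 138, 132, 93.7, 128 and 119 CPM at 1 month. In Banded SKM it had 24.9, 27.9, 22.3, 21.9 and 17.5 CPM at 4 months, against 49.7, 57.1, 61.6, 37.3 and 63.5 CPM at 1 month. Its 4-month libraries kept within a small range in both tissues of Banded cats, and the times did not overlap in either. SHAM LV was wider, with 148, 188, 267, 166 and 103 CPM at 4 months, against 90.4, 114 and 64.3 CPM at 1 month. SHAM SKM had 28.5, 32.2, 19.2, 22.96 and 26.96 CPM at 4 months, against 42.5, 39.7 and 38.2 CPM at 1 month.

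Member 11 had the same arrangement at a larger distance in muscle. Its Banded LV libraries had 374, 325, 338, 271 and 363 CPM at 4 months, against 171, 190.1, 199.9, 217 and 196 CPM at 1 month. Its Banded SKM libraries had 26.6, 27.5, 19.7, 13.4 and 9.32 CPM at 4 months, against 99.8, 47.4, 50.5, 48.5 and 72.1 CPM at 1 month. In SHAM the LV values were 447, 353, 294, 450.3 and 457 CPM at 4 months, against 284, 186 and 333 CPM at 1 month, so the times overlapped there. SHAM SKM stood at 30.9, 37.4, 26.8, 34.95 and 30.05 CPM at 4 months, against 75.2, 52.7 and 51.1 CPM at 1 month, with no overlap.

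On the CPM scale, member 17 was the only member to separate the times in LV of both treatments and in SKM of Banded cats. Its LV libraries had 119, 113, 237, 114 and 142 CPM in Banded at 4 months, against 65.5, 92.1, 98.1, 84.7 and 71.8 CPM in Banded at 1 month. SHAM LV had 251, 191, 205, 299 and 138 CPM at 4 months, against 73.97, 107 and 71.4 CPM at 1 month. In SKM it had 15.2, 12.2, 11.8, 13.02 and 11.7 CPM in Banded at 4 months, against 23.9, 32.1, 21.1, 21.96 and 19.2 CPM in Banded at 1 month. The SHAM SKM values, 10.6, 13.8, 12.9, 8.96 and 15.02 CPM at 4 months against 22.05, 15.8 and 14.95 CPM at 1 month, overlapped only by the highest 4-month and the lowest 1-month library.

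Members 7, 16 and 18 were clearest in SHAM cats. Member 7 had 10.3 to 19.7 CPM in SHAM LV at 4 months, against 5.03 to 8.77 CPM at 1 month, and 7.70 to 10.8 CPM in SHAM SKM at 4 months, against 14.9 to 17.5 CPM at 1 month. Member 16 had 237 to 413 CPM in SHAM LV at 4 months, against 123 to 179 CPM at 1 month, and 30.5 to 42.7 CPM in SHAM SKM at 4 months, against 50.5 to 58.5 CPM at 1 month. Member 18 had 12.3 to 24.9 CPM in SHAM LV at 4 months, against 3.63 to 10.5 CPM at 1 month, and 3.41 to 4.89 CPM in SHAM SKM at 4 months, against 5.25 to 6.87 CPM at 1 month. In Banded LV all 3 overlapped between times. There member 7 had 8.15 to 33.3 CPM at 4 months and 8.03 to 10.9 CPM at 1 month, with 4-month library 2 at 8.15 CPM among the libraries of 1 month.

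On the CPM scale, members 4, 15 and 39 separated the times in SKM of both treatments and in LV of neither. With TMM or RLE factors member 15 overlapped between times in Banded SKM. Member 4 had 14.6, 5.67, 8.51, 6.60 and 10.1 CPM in Banded SKM at 4 months, against 27.1, 44.3, 36.3, 24.1 and 34.4 CPM at 1 month. Its SHAM SKM libraries had 10.4, 11.2, 11.9, 10.99 and 13.2 CPM at 4 months, against 21.4, 18.8 and 20.2 CPM at 1 month. The SHAM SKM libraries of each time lay close together, and the times did not overlap in either treatment. In LV the same gene had 58.1 to 226 CPM in Banded LV at 4 months, against 31.6 to 86.7 CPM at 1 month, and 35.9 to 159 CPM in SHAM LV at 4 months, against 32.8 to 58.3 CPM at 1 month, with overlap in both. Member 15 had 16.9 to 22.8 CPM in Banded SKM at 4 months, against 24.3 to 45.5 CPM at 1 month, and 18.3 to 24.5 CPM in SHAM SKM at 4 months, against 34.6 to 39.9 CPM at 1 month. Member 39 had 3.21 to 7.95 CPM in Banded SKM at 4 months, against 8.58 to 15.9 CPM at 1 month, and 4.06 to 8.18 CPM in SHAM SKM at 4 months, against 10.1 to 14.3 CPM at 1 month. These SKM ranges did not overlap within a treatment, whereas in LV member 39 had 29.6 to 47.05 CPM in Banded LV at 4 months, against 19.2 to 30.5 CPM at 1 month, and 26.7 to 41.5 CPM in SHAM LV at 4 months, against 23.3 to 28.5 CPM at 1 month, which did.

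Members 9 and 19 had higher CPM in SKM than in LV. Member 9 had 62.1, 105, 96.7, 48.7 and 36.2 CPM in Banded SKM at 4 months, against 150.2, 386, 242, 142 and 108 CPM at 1 month. In LV it had 15.3 to 36.9 CPM in Banded LV at 4 months, against 9.96 to 21.95 CPM at 1 month, and 11.3 to 47.1 CPM in SHAM LV at 4 months, against 3.31 to 11.1 CPM at 1 month. The lowest Banded SKM library of 1 month was just above the highest of 4 months, and the SHAM LV times were just apart as well. Member 19 had 60.9, 39.1, 33.00, 40.5 and 40.2 CPM in SHAM SKM at 4 months, against 96.96, 129.7 and 162 CPM at 1 month. In SHAM LV it had 17.3, 16.1, 27.2, 14.2 and 13.1 CPM at 4 months, against 6.09, 7.88 and 6.19 CPM at 1 month. Its SHAM libraries separated the times in both tissues, while its Banded SKM libraries, 46.3 to 94.2 CPM at 4 months and 70.5 to 110.1 CPM at 1 month, overlapped.

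On the CPM scale, members 10, 32 and 35 likewise separated the times in SKM of both treatments and in LV of neither, as did members 1 and 12. Member 10 had 4.47 to 16.2 CPM in Banded SKM at 4 months, against 22.7 to 39.3 CPM at 1 month, and 12.05 to 22.7 CPM in SHAM SKM at 4 months, against 28.8 to 31.5 CPM at 1 month. Member 35 had 2.02 to 3.36 CPM in Banded SKM at 4 months, against 5.88 to 9.87 CPM at 1 month, and 1.82 to 5.38 CPM in SHAM SKM at 4 months, against 6.83 to 10.7 CPM at 1 month. Its LV libraries overlapped, with 17.5 to 27.97 CPM in Banded LV at 4 months, against 11.5 to 23.5 CPM at 1 month, and 18.9 to 34.5 CPM in SHAM LV at 4 months, against 18.7 to 20.5 CPM at 1 month. Members 13 and 28 separated them in SHAM. Member 13 had 12.3 to 26.8 CPM in SHAM LV at 4 months, against 3.48 to 6.46 CPM at 1 month, and 6.70 to 10.9 CPM in SHAM SKM at 4 months, against 11.2 to 13.9 CPM at 1 month. Member 28 had 179 to 528 CPM in SHAM LV at 4 months, against 89.9 to 178 CPM at 1 month, and 42.8 to 80.9 CPM in SHAM SKM at 4 months, against 89.6 to 128 CPM at 1 month. In Banded SKM member 28 overlapped, with 48.4 to 61.6 CPM at 4 months and 32.9 to 118 CPM at 1 month.

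The members' median fitted log2 fold change, 4 months over 1 month after TMM scaling, was 0.91 in Banded LV, 1.10 in SHAM LV, -1.10 in Banded SKM and -0.58 in SHAM SKM, given as a description since the choice used these contrasts. With SHAM 1-month library 1 replacing SHAM 4-month library 1, the SHAM medians were 1.02 in LV and -0.47 in SKM. On the CPM scale the replacement gave SHAM medians of 0.86 in LV, against 0.98 as labelled, and -0.45 in SKM, against -0.63 as labelled. That library then stands in both SHAM times, so their libraries meet by construction and no separation can be counted. Member 40 ranked last, and its Banded LV libraries had 3.14 to 14.5 CPM at 4 months and 4.39 to 7.52 CPM at 1 month.

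A group mean can be carried by 1 library, and that was the case for several of the highest-ranked members. In a group of 5, 1 library held most of the CPM sum in at least 1 group for 7 members (numbers 1, 2, 3, 5, 6, 21 and 24). Member 3 was among these. Its SKM libraries had 27.1, 2.11, 5.72, 3.24 and 4.19 CPM in Banded at 4 months, against 262, 6.25, 3.62, 11.1 and 3.44 CPM in Banded at 1 month. Library 1 was the highest in both Banded SKM groups and held 91.5% of the 1-month sum, and the other 4 libraries of each time overlapped. In LV it had 40.4, 158, 210.1, 35.9 and 36.9 CPM in Banded at 4 months, against 12.3, 12.4, 75.6, 23.1 and 10.5 CPM at 1 month. SHAM LV stood at 94.8, 541, 147, 57.6 and 11.4 CPM at 4 months, against 5.82, 16.5 and 5.14 CPM at 1 month. Without Banded 1-month library 1 in SKM, its smallest difference was -0.44, against 1.64 with it, which puts it outside the direction of the choice.

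Member 21 behaved likewise in LV, where its libraries had 1.03, 14.2, 11.5, 122 and 43.9 CPM in Banded at 4 months, against 6.96, 3.03, 0.864, 67.3 and 15.3 CPM in Banded at 1 month. SHAM LV had 0.492, 0.366, 16.7, 0.762 and 5.37 CPM at 4 months, against 2.19, 0.683 and 4.53 CPM at 1 month. Library 4 was the highest in both Banded groups, and SHAM library 3 in both SHAM groups. Without SHAM 4-month library 3 its smallest difference was -0.40, and with group medians in place of means it was -1.09, against 0.45 as chosen. Its SKM libraries had 97.1, 4.16, 12.4, 15.96 and 6.75 CPM in Banded at 4 months, against 33.5, 136, 97.5, 84.5 and 63.3 CPM at 1 month, with library 1 apart at 4 months. SHAM SKM had 16.2, 19.00, 17.4, 9.32 and 96.1 CPM at 4 months, against 47.3, 43.2 and 39.5 CPM at 1 month.

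Members 24 and 27 each turned on 1 library as well. Member 24 had 32.1, 3.68, 7.97, 24.6 and 119 CPM in Banded LV at 4 months, against 19.04, 19.6, 30.9, 28.7 and 18.5 CPM at 1 month. Without Banded 4-month library 5 its smallest difference was -0.44, against 0.44. Member 27 had 21.1, 32.8, 15.1, 9.86 and 13.8 CPM in SHAM SKM at 4 months, against 53.1, 17.8 and 8.41 CPM at 1 month. Only SHAM 1-month library 1 was above every 4-month library there, and without it the smallest difference was -0.48, against 0.42. In Banded SKM the same gene had 4.75 to 12.1 CPM at 4 months, against 8.59 to 56.5 CPM at 1 month.

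Members 5 and 6 kept their place despite a wide group. Member 5 had 254, 181, 262, 295 and 173 CPM in Banded LV at 4 months, against 79.6, 34.9, 72.7, 139 and 66.1 CPM at 1 month, with no overlap. In Banded SKM it had 12.6, 4.26, 0.930, 0.671 and 1.41 CPM at 4 months, against 21.1, 47.02, 4.31, 64.7 and 32.8 CPM at 1 month, where library 1 was the highest of the 4-month group. Member 6 had 43.4, 38.1, 56.3, 48.6 and 24.1 CPM in Banded LV at 4 months, against 22.4, 15.2, 21.5, 21.1 and 23.9 CPM at 1 month. SHAM LV had 43.5, 46.7, 45.4, 43.5 and 52.5 CPM at 4 months, against 21.8, 18.2 and 20.2 CPM at 1 month. These LV groups did not overlap in either treatment. In Banded SKM, member 6 had 4.03, 22.7, 5.26, 3.58 and 1.73 CPM at 4 months, against 14.4, 17.8, 12.03, 15.9 and 9.54 CPM at 1 month, and library 2 of the 4-month group was above all libraries of 1 month.

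**Figure D3:**
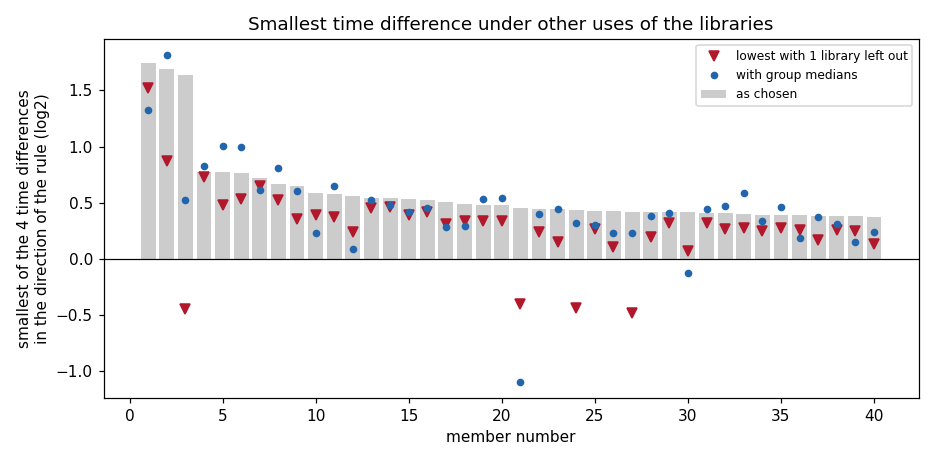
Smallest of the 4 time differences in the direction of the choice (vertical axis, log2) for members 1 to 40: as chosen (bars), the lowest value with any 1 of the 36 libraries left out (triangles), and with group medians in place of group means (dots). Triangles of members 3, 21, 24 and 27 and dots of members 21 and 30 lie below 0.

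With each of the 36 libraries left out in turn, 31 to 40 of the members were still among the 40 highest, and 11 members (numbers 1, 4, 5, 6, 7, 8, 10, 13, 14, 15 and 16) were among them every time. The direction of all 4 differences held every time for 35 members. Members 3, 21, 24 and 27 lost it without the libraries named above, member 21 also without Banded 4-month library 4 in LV, and member 2 went under the level floor of 5 CPM in LV without SHAM 4-month library 2. With the median of each group in place of its mean, 25 of the 40 were retained, and members 21 and 30 lost the direction. TMM scaling retained 30 and RLE scaling 29, and all 40 members kept their direction under both. The mean of log2 values retained 31, and 39 members kept their direction. A floor of 10 CPM retained 30, a pseudocount of 2 retained 39 and a pseudocount of 0.1 retained 40. With SHAM 1-month library 1 replacing SHAM 4-month library 1, 29 were retained and all 40 kept their direction. A floor of 1 CPM in place of 5 retained 15, since genes of lower level then entered the ranking.

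The members were also summed up per library, as their mean log2 deviation from each gene's mean over the 18 libraries of the tissue. In LV this mean deviation lay between 0.01 and 0.64 in Banded at 4 months, between -0.43 and -0.12 in Banded at 1 month, between 0.18 and 0.75 in SHAM at 4 months and between -0.81 and -0.46 in SHAM at 1 month. In SKM it lay between -0.97 and -0.06 in Banded at 4 months, between 0.41 and 0.83 in Banded at 1 month, between -0.47 and 0.03 in SHAM at 4 months and between 0.32 and 0.65 in SHAM at 1 month. No library of 4 months overlapped those of 1 month in either tissue, a separation that the choice of the members fixes. Over all genes at the floor the same quantity stayed between -0.20 and 0.20. The 4-month libraries nearest to those of 1 month were Banded library 2 in LV, with 17 of 40 members above their own mean, and Banded library 1 and SHAM library 2 in SKM, also with 17 each. At the other end, 0 of 40 members were above their mean in Banded 4-month library 5 of SKM and in SHAM 1-month library 1 of LV.

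**Figure D4:**
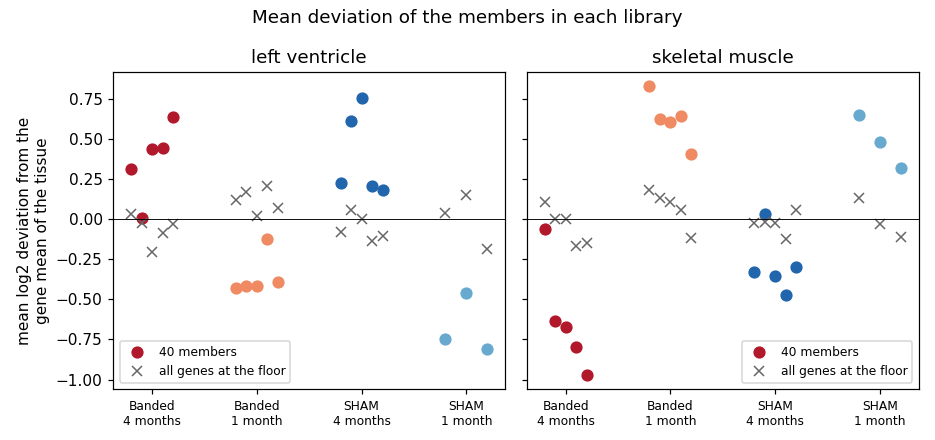
Mean log2 deviation of the 40 members from their gene means over the tissue's 18 libraries (vertical axis), per library, with the same for all genes at the level floor as crosses; groups by treatment and time on the horizontal axis. The members' points at 4 months lie above those at 1 month in LV and below them in SKM. The crosses stay between -0.20 and 0.20. In Banded LV they run from 0.02 to 0.20 at 1 month and from -0.20 to 0.03 at 4 months.

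Residuals from the group means, which the choice did not rank on, were wider for the members than for most genes. The residual SD of log2 CPM had a median of 0.47 in LV for the members, against 0.29 for all genes at the floor, and 34 of 40 members were above the all-gene median. In SKM the medians were 0.42 for the members and 0.26 for all genes, with 33 of 40 members above the all-gene value. A ranking of differences between means favours genes of wide spread, so this width is no independent property of the members. Within groups, the median Pearson r of residuals between members was 0.12 in LV and 0.18 in SKM over 18 libraries, against 0.11 in LV and 0.13 in SKM between all genes, which share library depth and scaling. Between LV and SKM libraries of the same group and number the median r of a member with itself was 0.04, against 0.11 for all genes.

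The level in LV against SKM, averaged with equal weight over the 4 treatment and time groups, was tested in a fit of all 36 libraries. Of the 40 members, 38 differed between the tissues at an adjusted p under 0.05 with edgeR, as did 78.5% of all genes tested. In LV 27 members were higher (42.8% of all genes) and 11 lower (35.7%). The median log2 fold change, LV over SKM, was 0.90 for the members and 0.12 for all genes tested, and the members ranged from -3.60 to 3.02. The genes tested here were not held to a mean of 5 CPM in each tissue, as the members were. The all-gene values are therefore of an unlike set.

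Members 27 and 12 were the farthest above in LV. Member 27 had a log2 fold change of 3.02 (SE 0.240), and member 12 of 2.90 (SE 0.188). Member 12 had 179 to 567 CPM in Banded LV at 4 months and 8.20 to 21.6 CPM in Banded SKM at 4 months. Members 9 and 19 were the farthest below in LV, with log2 fold changes of -3.60 for member 9 (SE 0.247) and -3.42 for member 19 (SE 0.145). Member 9 had 15.3 to 36.9 CPM in Banded LV at 4 months and 36.2 to 105 CPM in Banded SKM at 4 months. The tissues were far apart for member 12, while the highest LV library of member 9 was just above its lowest SKM library within these Banded 4-month groups. Of the members printed by identifier, ENSFCAG00000022318 was higher in LV (log2 fold change 1.73, SE 0.141), and lower in LV were ENSFCAG00000042461 (-3.10, SE 0.529) and ENSFCAG00000004727 (-0.95, SE 0.126). ENSFCAG00000013929 did not pass (0.67, SE 0.342, edgeR adjusted p 0.0714), nor did member 22 (0.04, SE 0.102, adjusted p 0.744).

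Directions between tissues depend on the scaling. On the CPM scale without TMM factors, 32 members had the higher mean in LV and 8 in SKM, where 76.4% of all genes at the floor were higher in LV. Members 7, 13 and 15 were higher in LV on that scale and lower in LV by the fit. Mean CPM over 18 libraries ran from 6.79 to 1279.7 among members in LV (median 37.5, above that of 52.9% of genes at the floor) and from 5.44 to 1449 in SKM (median 20.4, above that of 47.5%).

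Banding was compared with SHAM within each tissue and time, to ask which genes differ early and late in the model. These contrasts set treatments against each other within a time, whereas the choice set times against each other within a treatment, but both use the same libraries. No member passed an adjusted p of 0.05 with edgeR in LV at 4 months, LV at 1 month, SKM at 4 months or SKM at 1 month (0 of 40 each), and no gene of the whole table did (0.0% in each comparison). At an unadjusted p under 0.05 there were 4 members in LV at 4 months (10.2% of all genes), 1 in LV at 1 month (8.7%), 7 in SKM at 4 months (7.89%) and 4 in SKM at 1 month (14.1%). DESeq2 called 0 members in each of the 4 comparisons, and over all genes 135 in LV at 4 months, 100 in LV at 1 month, 56 in SKM at 4 months and 24 in SKM at 1 month.

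In SKM at 4 months the members leaned to lower values in Banded cats. The choice used these same 4-month groups, and the SKM fall with time was larger in Banded for 34 of 40 members. The lean is therefore not independent of the differences that chose the members. There 34 of 40 had a log2 fold change, Banded over SHAM, under 0 and 6 above 0, with a median of -0.25, whereas 53.8% of all genes were above 0 and their median was 0.02. The count of lower members stayed between 28 and 36 over the alternatives, with 28 when SHAM 4-month library 5 was left out, and the median between -0.44 and -0.20; the count of 36 and the median of -0.44 came with SHAM 1-month library 1 replacing SHAM 4-month library 1. All 7 members with an unadjusted p under 0.05 there were lower in Banded. In the other 3 comparisons the members' medians were -0.13 in LV at 4 months (15 higher, 25 lower), 0.04 in LV at 1 month (24 higher, 16 lower) and -0.02 in SKM at 1 month (19 higher, 21 lower). These 3 medians changed sign within the alternatives: with the SHAM library replaced, the LV median at 4 months was 0.03 (22 higher, 18 lower), without SHAM 1-month library 1 the LV median at 1 month was -0.01, and with the replicate block the SKM median at 1 month was 0.08. No member of these counts passed the adjusted test, and the lean describes these libraries only. The all-gene values beside it are of genes not chosen by their time differences.

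**Figure D5:**
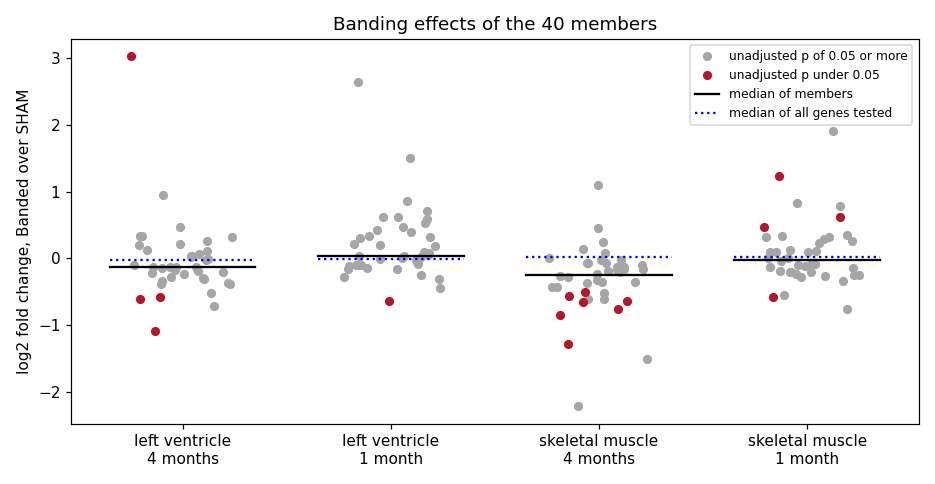
Log2 fold change, Banded over SHAM, of each of the 40 members in LV and SKM at 4 months and 1 month (edgeR); black lines are the members' medians and dotted lines those of all genes tested. Red points have an unadjusted p under 0.05, and no point passes the adjusted threshold. In SKM at 4 months 34 points lie below 0.

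ENSFCAG00000022318 had the smallest unadjusted p of any member for banding, in SKM at 4 months, where the Banded libraries averaged 6.02 CPM (SD 2.17, n = 5) and the SHAM libraries 10.8 CPM (SD 4.91, n = 5). The log2 fold change was -0.85 (SE 0.256, unadjusted p 0.00373, edgeR adjusted p 0.376). Over 25 alternatives it ran from -0.999 to -0.556, with an adjusted p of 0.0654 to 0.865. Its 5 Banded libraries, 3.79 to 8.42 CPM, overlapped the SHAM libraries, 6.22 to 18.96 CPM. At 1 month in SKM its log2 fold change was 0.10 (SE 0.290, edgeR adjusted p 0.899).

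The other members at an unadjusted p under 0.05 in SKM at 4 months were numbers 23, 11, 33, 27, 7 and 12. Member 23 had 7.91, 6.21, 5.58, 8.02 and 4.84 CPM in Banded and 10.4, 15.3, 8.10, 8.55 and 8.76 CPM in SHAM, where all 5 Banded libraries were below all 5 SHAM libraries (log2 fold change -0.64, SE 0.196, edgeR adjusted p 0.376). Member 11 had 26.6, 27.5, 19.7, 13.4 and 9.32 CPM in Banded and 30.9, 37.4, 26.8, 34.95 and 30.05 CPM in SHAM, with 1 SHAM library between the Banded ones (-0.75, SE 0.243, edgeR adjusted p 0.405). Member 27 had the largest fold change of these 6, with 4.75 to 12.1 CPM in Banded and 9.86 to 32.8 CPM in SHAM (-1.28, SE 0.448, edgeR adjusted p 0.497). None of these passed the adjusted test.

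In SKM at 1 month the 4 members at an unadjusted p under 0.05 were numbers 4, 18 and 30, higher in Banded, and 19, lower in Banded. Member 4 had 27.1, 44.3, 36.3, 24.1 and 34.4 CPM in Banded and 21.4, 18.8 and 20.2 CPM in SHAM, with no overlap (log2 fold change 0.62, SE 0.234, edgeR adjusted p 0.296). Member 18 had 9.56, 8.28, 8.55, 7.27 and 10.1 CPM in Banded and 6.87, 5.71 and 5.25 CPM in SHAM, also with no overlap (0.46, SE 0.182, edgeR adjusted p 0.302). Member 30 had 9.47, 19.7, 21.6, 14.00 and 49.99 CPM in Banded, where library 5 was the highest, and 9.79, 8.78 and 9.73 CPM in SHAM (1.23, SE 0.520, edgeR adjusted p 0.316). Member 19 had 84.7, 70.5, 109.7, 95.4 and 110.1 CPM in Banded and 96.96, 129.7 and 162 CPM in SHAM (-0.58, SE 0.263, edgeR adjusted p 0.339). None of the 4 passed the adjusted test. At 4 months in SKM, members 4 and 18 had log2 fold changes of -0.35 (SE 0.202, edgeR adjusted p 0.717) and -0.27 (SE 0.159, edgeR adjusted p 0.717).

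Among the members printed by identifier, ENSFCAG00000042461 and ENSFCAG00000004727 had their smallest p for banding in LV at 4 months. ENSFCAG00000042461 averaged 6.91 CPM (SD 2.41, n = 5) in Banded and 15.2 CPM (SD 16.6, n = 5) in SHAM, where library 2 held most of the sum (log2 fold change -1.09, SE 0.494, edgeR adjusted p 0.457). Without that library its log2 fold change was -0.25. ENSFCAG00000004727 averaged 1199 CPM (SD 387, n = 5) in Banded and 1815 CPM (SD 616, n = 5) in SHAM (log2 fold change -0.61, SE 0.278, edgeR adjusted p 0.457). Member 17 had 119, 113, 237, 114 and 142 CPM in Banded LV and 251, 191, 205, 299 and 138 CPM in SHAM LV at 4 months, overlapping (-0.57, SE 0.251, edgeR adjusted p 0.446). Member 21 had the highest LV fold changes at both times, 3.03 at 4 months (SE 1.2, edgeR adjusted p 0.411) and 2.64 at 1 month (SE 1.52, adjusted p 0.670). Member 11 was lowest in LV at 1 month, with 171, 190.1, 199.9, 217 and 196 CPM in Banded and 284, 186 and 333 CPM in SHAM (-0.63, SE 0.219, edgeR adjusted p 0.403). For ENSFCAG00000013929 the smallest p was in SKM at 4 months, with a log2 fold change of -0.27 (SE 0.425, edgeR adjusted p 0.917), which changed sign to 0.0674 without SHAM 4-month library 5.

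Whether the banding effect differed between the tissues was tested as the effect in LV minus that in SKM. With edgeR, 0 of 40 members passed at 4 months, where 0.0343% of all genes (5 genes) did, and 0 of 40 at 1 month, where 0.0% did. At an unadjusted p under 0.05 there were 8 members at 4 months (7.98% of all genes) and 1 at 1 month (7.77%). These tests use the same libraries that chose the members, so the counts are not independent of the choice. They are read no further. DESeq2 called 0 members at either time, and over all genes 22 at 4 months and 2 at 1 month. The smallest p at 4 months was that of member 7, with a difference of 1.06 log2 units (SE 0.365, edgeR adjusted p 0.411). Its CPM was 8.15 to 33.3 in Banded LV and 10.3 to 19.7 in SHAM LV, against 3.32 to 9.33 in Banded SKM and 7.70 to 10.8 in SHAM SKM.

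The authors' deposited tables list all 40 members. For banding, at adjusted p-values under 0.05, the authors' deposited tables call 2 members in SKM at 4 months, both lower in Banded (0.651% of genes listed). They call 0 in LV at 4 months (0.928%), 0 in LV at 1 month (0.558%) and 0 in SKM at 1 month (0.0598%), each a value of the authors' deposited tables. The members' median log2 fold change for banding in SKM at 4 months is -0.44 in the authors' deposited table, against -0.25 in a DESeq2 fit of the labelled groups. In LV at 4 months it is 0.02 in the authors' deposited table, against -0.12 in that fit. For comparisons with SHAM at 4 months, single members of the authors' deposited tables differ from that fit by up to 0.306 log2 units in LV and 1.07 in SKM. With SHAM 1-month library 1 replacing SHAM 4-month library 1, no member differs by more than 0.00154 in these comparisons. How that library came to stand there was not tested.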

How the data were processed

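Messenger RNA of cat left ventricle (LV) and skeletal muscle (SKM) was sequenced, and per the labels' protocols the kit was stranded and started from total RNA. The authors deposited 1 table of whole-number counts per gene and library, not normalized. The tools named in the submitters' processing notes are HISAT2 2.1.0, DESeq2 1.22.2 and HTSeq 0.11.2; their settings, the genome build and the annotation are not given in the sources used here. The authors' deposited tables of 8 comparisons hold several statistics per gene, of which the log2 fold change and the adjusted p-value were used.

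The 5 summary lines of each count table were left out. CPM used the sum over genes. How reads shared by near-identical genes were counted is not stated; 18.3% to 36.7% of the lines counted in LV and 7.73% to 27.2% in SKM were listed as not uniquely aligned. The members and the tests were chosen with earlier results of these data known. Gene lists and cell type markers could not be used, since identifiers have no symbols. The printed identifiers are those of members 1 and 2, of the member with the smallest unadjusted p over the 4 banding comparisons, and of the member with the highest mean CPM.

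In R 4.3.3, edgeR 4.0.16 was fitted to the 18 libraries of each tissue, and to all 36 for comparisons between tissues, after filterByExpr on the groups (13976 genes in LV, 13480 in SKM, 14579 jointly), with TMM scaling and the quasi-likelihood F test, two-sided. P-values were adjusted by Benjamini-Hochberg over all genes tested and called under 0.05. The fits were run on simulated counts with independent libraries and the same spread setting for every gene. Such counts do not represent the wider spread of the members or their groups with a library far above the rest. Library numbers are shared between groups and tissues. They were to count as pairs if every pair of residuals correlated above 0.1, which held for 14 of 18 LV and SKM pairs and for 11 of 24 pairs within each tissue, so the fits carry no block. This does not exclude that LV and SKM libraries of a number came from the same animal. The joint fit treats them as independent. Alternatives were DESeq2 1.42.0, RLE scaling, no low-count filter, only the groups compared, the replicate number as a block, each library left out in turn, and for the ranking also other pseudocounts (0.1 and 2), floors (1 and 10 CPM) and the mean of log2 values. Group medians, the replaced SHAM library and the alternatives for the median time differences and for the count of lower members were added after seeing the data.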

Additional observations from a re-analysis of the deposited data

Results flagged for a closer look

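In groups of 5 libraries, the library at either end was compared with the rest of its group by its gap to the nearest library, for the 4 printed members and for the members' mean deviation. Of 30 groups, 7 had a library that stood apart. The 5% rate of such a comparison assumes normally spread values, whereas single genes were compared as CPM without a log. The count is therefore not set against that rate. All single-gene cases were of members 1 and 2, which ranked highest. ENSFCAG00000013929 stood at 33.5 CPM in LV Banded 1-month library 4, with the other libraries at 5.36 to 10.6 CPM, and at 32.8 CPM in SKM Banded 1-month library 2, with the others at 10.4 to 15.7 CPM. ENSFCAG00000042461 stood at 10.2 CPM in SKM Banded 4-month library 1 (others 1.216 to 2.74 CPM) and at 142 CPM in SKM Banded 1-month library 1 (others 3.79 to 42.4 CPM). The same gene stood at 43.9 CPM in LV SHAM 4-month library 2 (others 5.11 to 15.00 CPM) and at 64.8 CPM in SKM SHAM 4-month library 2 (others 1.66 to 5.95 CPM). The mean deviation of the members was -0.125 in LV Banded 1-month library 4, with the other 4 libraries between -0.43 and -0.40. The causes were not tested.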

How the results depend on the processing

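Of 530 alternative values, 519 kept their direction and stayed on their side of the threshold. These also stayed within 1.5 times the count reported or, for median time differences, within the members' median residual SD. Of the others, 10 moved and 1 turned its sign. The 530 include counts of 0 members called for banding, and fits without a library of a group not compared. Such values could hardly move, so the total is no measure of stability. For banding, leaving out libraries gave 0 to 2 members called in LV at 1 month, with 2 without SHAM 1-month library 2, and 0 to 1 in SKM at 4 months, with 1 without Banded 4-month library 1. DESeq2 with SHAM 1-month library 1 replacing SHAM 4-month library 1 called 1 in SKM at 4 months. The log2 fold change of ENSFCAG00000013929 in SKM at 4 months lay between -0.485 and 0.0674 with libraries left out, the highest without SHAM 4-month library 5. Members without overlap between times numbered 8 under TMM and 10 under RLE scaling in LV, against 3, and 3 to 7 with libraries left out; in SKM they numbered 6 under RLE, against 10. Retained by the ranking were 15 with a floor of 1 CPM and 25 with group medians. The causes were not tested.

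With the replicate block, 38 members were called for tissue and 0 in every banding comparison and tissue difference. Own numbers correlated best in 10 of 18 LV and SKM pairs.

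Several members stood under 5 CPM in SKM at 4 months, and the part of depth in their spread was not tested. SHAM at 1 month has 3 libraries, so each comparison with it, and the rank of the 19 members set by SHAM SKM, rests on few values. Left ventricle time differences in CPM carry a downward shift of all genes. Without gene symbols the members are described by level and pattern only.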
